A study of Mus musculus with 11 samples.

Results

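The transcripts described here are those of 10 genes of the activator protein 1 (AP-1) group and its relatives, namely Fos, Fosb, Fosl1, Fosl2, Jun, Junb, Jund, Atf3, Maff and Batf, among 55421 genes counted in mouse heart RNA. The genes were chosen by family, and the family was chosen because Atf3 was much lower in infarcted mice given an ADAM10 inhibitor than in those given solvent. The difference between inhibitor and solvent is therefore described without a test, whereas the difference of infarcted from sham-operated hearts was tested. All 10 genes were found in the count table and all 10 passed the filter on low counts.

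Heart RNA came from 11 female C57BL/6J mice, 8 weeks old. In 8 of them the left anterior descending coronary artery was ligated for good to cause a myocardial infarction, and the infarct was taken with its border zone 3 days later. Of these, 4 mice (A116, A117, A119 and A120) were given 100 mg/kg of GI254023X, a hydroxamate that inhibits the protease ADAM10, from an osmotic minipump (A10i), and 4 (A105, A127, A128 and A129) received its solvent DMSO. The other 3 mice (S1, S2 and S3) had a sham operation, were given DMSO and yielded healthy heart tissue, so the infarction and the region sampled cannot be told apart in any comparison with sham. The inhibitor acts on a protein, so no transcript checks the treatment label. The counts assigned to genes summed to between 21702623 and 29511768 per library.

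AP-1 is a dimer of basic leucine zipper (bZIP) proteins, usually a Fos protein paired with a Jun protein, that binds DNA and switches on genes of injury, growth and matrix turnover. Fos, Fosb, Jun and Junb are immediate early genes, transcribed within minutes of a stimulus without new protein synthesis, through serum response factor (SRF), ternary complex factors and mitogen-activated protein kinases. Atf3 is a stress-induced relative that often represses transcription. Small Maf proteins such as Maff lack a transactivation domain and pair with other bZIP proteins, and Batf is a partner of Jun proteins best known from lymphocytes. In heart, Fos and Jun have long been used as marks of ischaemia and of haemodynamic load.

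Promoters of Atf3, Fos, Junb and Maff are shown as examples of upstream sequence that holds a site bZIP factors are known to bind. Fosb and Batf also hold such a site and are not printed. RefSeq promoters (GRCm38.p6) were found for 9 of the 10 members, not for Fosl1, with 3 starts for Maff. Each line gives the 150 bases before the transcription start, 5′ to 3′ on the strand of the gene, and capitals mark matches to TGACG (the core of the cAMP response element), TGACGTCA (the whole element) or TGATGNAAN (the C/EBP-ATF response element) on either strand. The stretches lie at chr1:191183334-191183483 on the minus strand for Atf3, chr12:85473740-85473889 on the plus strand for Fos, chr8:84978749-84978898 on the minus strand for Junb, and chr15:79347370-79347519 on the plus strand for the second Maff start.
Atf3: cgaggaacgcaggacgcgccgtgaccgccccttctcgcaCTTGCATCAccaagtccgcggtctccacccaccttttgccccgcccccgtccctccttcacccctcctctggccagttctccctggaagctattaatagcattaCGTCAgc
Fos: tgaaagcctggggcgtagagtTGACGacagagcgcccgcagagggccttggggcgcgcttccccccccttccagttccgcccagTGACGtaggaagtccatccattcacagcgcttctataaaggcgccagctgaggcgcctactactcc
Junb: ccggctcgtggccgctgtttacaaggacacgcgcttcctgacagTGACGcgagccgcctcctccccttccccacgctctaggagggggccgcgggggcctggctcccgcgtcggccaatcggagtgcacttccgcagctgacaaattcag
Maff: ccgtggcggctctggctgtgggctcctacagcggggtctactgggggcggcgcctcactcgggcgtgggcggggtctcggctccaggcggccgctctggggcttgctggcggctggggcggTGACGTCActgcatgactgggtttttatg

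Atf3 had a match to the C/EBP-ATF response element beginning 111 bases before its start, read on the opposite strand, which 3.44% of all 32851 RefSeq promoters hold in the 250 bases before the start. It also had the TGACG core 7 bases before the start. Maff had the whole cAMP response element 29 bases before its second start, an element found in 1.55% of promoters, and the core matches within it overlap this site. The TGACG core was found in 6 of 9 members (Atf3, Batf, Fos, Fosb, Junb and Maff) and in 17.8% of all promoters. Fos had the core at 2 places, the nearer 66 bases before the start, and the letters TATAAA at 33 bases, searched on the strand of the gene alone and present in 7.59% of promoters. Neither the AP-1 site TGANTCA (6.75% of promoters) nor the CArG box, the site of SRF (1.47%), was matched in these 250 bases of any member. For Jund the window ends at chr8:70697738, upstream of the counted gene, which begins at chr8:70698949. The lack of matches for Jund therefore says nothing about the start of the counted gene. For Atf3, on the minus strand, the counted gene begins at chr1:191218039. Its window thus lies inside the gene, before an internal start, and no other Atf3 start was searched. These matches describe letters in a window, not bound sites.

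In infarcted tissue the AP-1 group was raised nearly as a whole. Against sham, 9 of 10 members were higher with the A10i and DMSO mice weighted equally (edgeR's quasi-likelihood test, Benjamini-Hochberg adjusted p under 0.01) and 0 were lower, with a median log2 fold change of 1.97. Among all 17480 genes tested, 14.9% were called higher and 11.5% lower, and the median was 0.00. Jun was the exception, with a log2 fold change of 0.44 (SE 0.16, adjusted p = 0.0427). For all 10 members, Jun included, each of the 8 infarcted mice lay above each of the 3 sham mice, as they did for 18.8% of all genes tested (16% had all infarcted mice below). For Jun the groups were apart by a small margin, 61.9 CPM in the lowest infarcted mouse against 61.6 CPM in the highest sham mouse.

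The Fos family, whose proteins need a Jun partner to bind DNA, held the steepest rises with both infarcted groups pooled, those of Fosl1, Fos and Fosb, while in DMSO mice alone Atf3 (3.82) was above Fos (3.75) and Fosb (3.32). Fosl1 (chr19:5447547-5455946, GRCm38), which encodes FRA-1, stood at 0.131, 0.111 and 0 CPM (counts per 1000000 counts of the library, scaled by TMM) in the sham mice S1, S2 and S3. It stood at 3.85, 2.02, 2.68 and 5.66 CPM in the DMSO mice A105, A127, A128 and A129, and at 1.74, 1.08, 0.745 and 0.761 CPM in the A10i mice A116, A117, A119 and A120. No mouse of any group reached the range of another, and the log2 fold change of infarcted against sham was 4.53 (SE 0.63, adjusted p = 0.000262). The sham level rests on 3, 3 and 0 counts, so the size of this fold is imprecise.

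Fos itself (chr12:85473890-85477273), the prototype immediate early gene, was at 1.22, 0.854 and 1.21 CPM in sham mice. The DMSO mice had 11.3, 11.4, 18.7 and 17.7 CPM and the A10i mice 11.5, 7.61, 9.52 and 4.84 CPM, in the order of mice given above. A116 thus reached the lower DMSO mice, while all infarcted mice were well above sham (log2 fold change 3.35, SE 0.32, adjusted p = 4.39e-05). Fosb (chr7:19302696-19310051) rose as steeply from a level near the limit of detection, from 0.0870 to 0.322 CPM in sham to 0.761 to 2.26 CPM after infarction (log2 fold change 3.12, SE 0.45, adjusted p = 0.000278).

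Fosl2 (chr5:32135801-32157842), which encodes FRA-2, was the Fos family member with the highest level per length in sham hearts, at 6.38 ± 0.525 TPM (counts per exon length). Its values were 26.9, 31.0 and 30.0 CPM in sham mice, 101.5, 87.9, 88.9 and 100.4 CPM in DMSO mice and 67.8, 54.0, 64.0 and 48.5 CPM in A10i mice. The groups formed separate steps with no overlap, and the rise from sham was 1.34 on the log2 scale (SE 0.11, adjusted p = 1.32e-05).

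Within the Jun family, Junb rose most. Junb (chr8:84974484-84978718), a Jun protein with weaker activating capacity than JUN, was at 9.92, 10.8 and 11.6 CPM in sham mice, at 55.4, 48.1, 64.2 and 62.7 CPM in DMSO mice and at 47.6, 40.0, 29.4 and 32.4 CPM in A10i mice. The highest A10i mouse, A116, came close to the lowest DMSO mouse, A127, without reaching it, and the log2 fold change of infarcted against sham was 2.10 (SE 0.16, adjusted p = 1.26e-05). Jund (chr8:70698949-70700616), the constitutively expressed Jun gene, rose by a small amount from a high level. Its values were 100.3, 97.6 and 95.5 CPM in sham mice, 174.8, 149.7, 144.5 and 150.4 CPM in DMSO mice and 114.0, 106.7, 139.4 and 116.1 CPM in A10i mice, a log2 fold change of 0.47 (SE 0.09, adjusted p = 0.00136). Without S2 or without S3 the adjusted p of Jund became 0.0102 and 0.0117. Jun (chr4:95049034-95052222) ranged from 53.1 to 61.6 CPM in sham mice, from 67.6 to 109.5 CPM in DMSO mice and from 61.9 to 92.3 CPM in A10i mice, so the infarcted groups overlapped widely.

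Atf3 (chr1:191170296-191218039) had 4.35, 3.04 and 3.38 CPM in sham mice. It had 82.1, 37.3, 41.9 and 42.6 CPM in the DMSO mice and 13.2, 10.8, 13.9 and 9.85 CPM in the A10i mice. The DMSO mouse A105 stood far above the other DMSO mice, and the A10i mice lay together between sham and DMSO. Infarcted against sham, Atf3 rose by 2.78 on the log2 scale (SE 0.28, adjusted p = 6.15e-05). Maff (chr15:79346621-79359076) followed the same order, with 6.40, 5.31 and 6.03 CPM in sham mice, 31.6, 24.2, 22.1 and 31.4 CPM with DMSO and 15.3, 18.1, 15.5 and 16.8 CPM with A10i. Its rise was 1.84 (SE 0.14, adjusted p = 1.17e-05), the smallest p among the members. Batf (chr12:85686669-85709087) was low throughout, at 0.520 to 0.566 CPM in sham mice, 1.27 to 2.11 CPM with DMSO and 1.25 to 1.70 CPM with A10i, or 13 to 54 counts per library, and rose by 1.52 (SE 0.23, adjusted p = 0.000413).

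**Figure D1:**
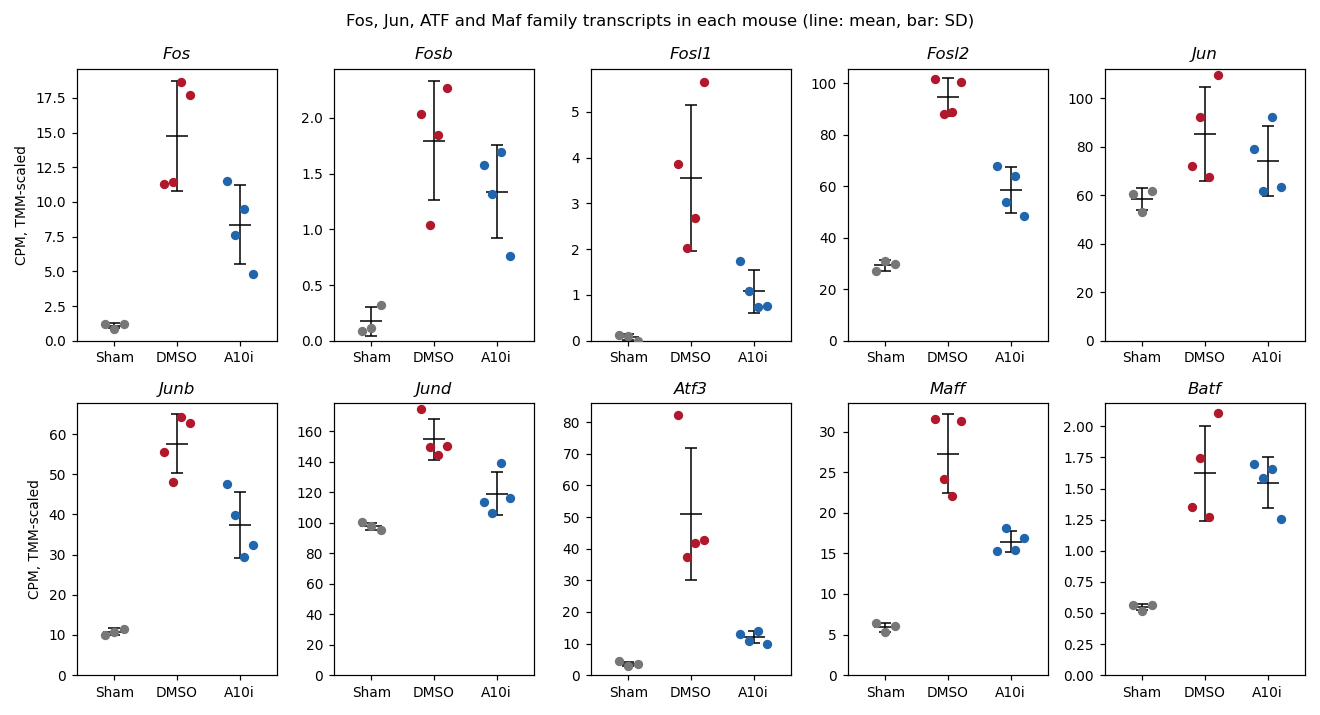
CPM of each member (y axis, TMM-scaled, from 0, a scale of its own in each panel) in 3 sham, 4 DMSO and 4 A10i mice, with 1 point per mouse, a line at the group mean and a bar for the SD. Infarcted mice lie above sham mice in each panel, by a narrow margin for Jun (61.9 against 61.6 CPM) and as for 18.8% of all genes tested, and the DMSO and A10i mice are apart for Atf3, Fosl1, Fosl2, Junb, Jund and Maff.

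Each infarcted group was also set against sham on its own, and both comparisons share the 3 sham mice. In DMSO mice 9 of 10 members were called higher and 0 lower, with a median log2 fold change of 2.30, where 12.9% of 17117 genes were called higher and 9.60% lower. In A10i mice 8 of 10 were called higher and 0 lower, with a median of 1.62, where 13.7% of 16971 genes were called higher and 9.11% lower. Both counts include Fosl1 and Fosb, which passed the filter through the infarcted libraries. Jun missed the threshold in both (log2 fold change 0.54, adjusted p = 0.0290 in DMSO mice and 0.35, adjusted p = 0.0712 in A10i mice), and Jund missed it in A10i mice (0.29, adjusted p = 0.0267).

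Side by side, Atf3 rose by 3.82 (SE 0.32) in DMSO and by 1.74 (SE 0.17) in A10i mice against sham. Fosl1 rose by 5.37 (SE 0.63) and by 3.68 (SE 0.61). For Fos the values were 3.75 (SE 0.27) and 2.95 (SE 0.32). These are stress-responsive genes with low levels in healthy heart, and each was called in both groups. Batf had 1.55 (SE 0.28) and 1.49 (SE 0.24), and its call in DMSO mice was lost without S1, S2 or S3 (adjusted p = 0.0132, 0.0152 and 0.0135).

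**Figure D2:**
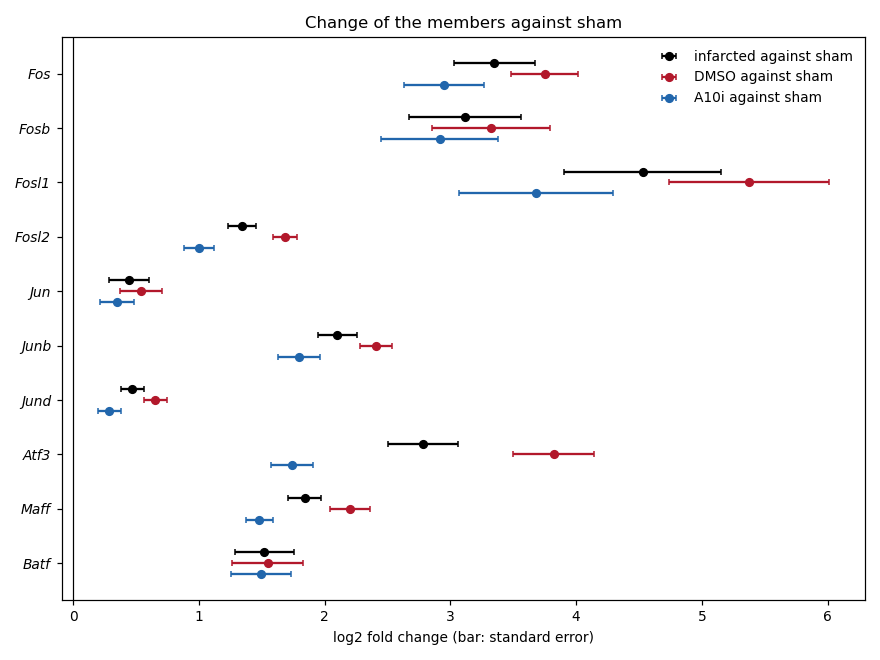
Log2 fold change against sham (x axis) of each member (y axis) for all infarcted mice (black), DMSO mice (red) and A10i mice (blue), with bars for the standard error. All values lie right of 0, from 0.29 for Jund in A10i mice to 5.37 for Fosl1 in DMSO mice.

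Between the infarcted groups, the comparison that chose the genes, all 10 members had a lower fitted level in A10i than in DMSO mice, with log2 fold changes from -2.09 (Atf3) to -0.06 (Batf) and a median of -0.65, beside a median of 0.00 over all 16792 genes tested. The 4 A10i mice were all below the 4 DMSO mice for 6 members, Atf3, Fosl1, Fosl2, Junb, Jund and Maff, and above them for 0. Over all genes, 4.0% were lower without overlap and 4.13% higher, and nothing is read from this background, since the members were chosen on this contrast. Fewer cells of a type and less RNA per cell cannot be told apart in tissue RNA.

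Atf3 had the lowest level relative to DMSO, with A10i mice at 23.4% ± 3.72 (SD, n = 4) of the DMSO mean. Fosl1 was at 30.4% ± 13.1, Fos at 56.7% ± 19.3, Maff at 60.2% ± 4.72, Fosl2 at 61.9% ± 9.39 and Junb at 64.8% ± 14.1 of it. The Maff values of the A10i mice were close together, whereas those of Fos spread from 32.7 to 78.1%. Fosb (74.5% ± 23.2), Jund (76.9% ± 9.14), Jun (86.9% ± 16.8) and Batf (95.5% ± 12.5) were nearest to the DMSO mean. Measured as the distance from the sham to the DMSO mean, Atf3 in A10i mice had covered 17.6% ± 4.01 of it, Fosl1 28.8% ± 13.4, Jund 37.2% ± 24.8, Fosl2 44.8% ± 13.6, Maff 49.2% ± 6.03, Fos 53.3% ± 20.9, Junb 56.7% ± 17.4, Jun 58.4% ± 53.1, Fosb 71.8% ± 25.7 and Batf 93.1% ± 18.8. The order thus depends on the measure: Jund was near the DMSO mean as a share of it, yet among the lowest by distance, since its levels in sham and DMSO mice lay close to each other.

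**Figure D3:**
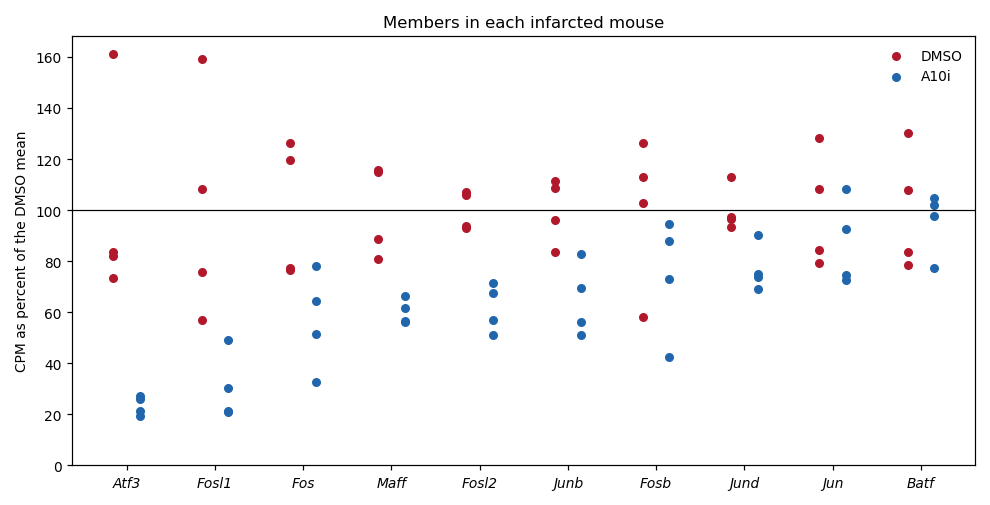
CPM of each member (x axis) in each of 4 DMSO mice (red) and 4 A10i mice (blue), as a percent of the DMSO mean (y axis, line at 100%). From left to right the A10i mean goes from 23.4% for Atf3 to 95.5% for Batf, and the colours overlap for Fos, Fosb, Jun and Batf.

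Levels per length, in TPM (counts divided by exon length, scaled to a sum of 1000000 per library), place Jund first in every group. Its level was 123.6 ± 2.42 TPM in sham (SD, n = 3), 230.1 ± 15.96 in DMSO (n = 4) and 175.9 ± 18.8 in A10i mice (n = 4). Jun was the second and Junb the third in each group, with ranges that overlapped each other in both infarcted groups and not in sham. Atf3 was the sixth in sham hearts at 3.51 ± 0.626 TPM and the fourth in DMSO mice at 57.7 ± 18.6 TPM, where its range overlapped that of Junb. In A10i mice it was the sixth at 13.7 ± 2.58 TPM, overlapping Fosl2 above and Fos below it. Fosb, Fosl1 and Batf were the lowest in every group.

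The summed TPM of the 7 Fos and Jun family members came to 179.6 ± 1.58 for sham, 405.4 ± 50.4 for DMSO and 299.5 ± 38.9 for A10i mice. Jund made up 68.8% ± 1.51 of this sum in sham mice, 57.1% ± 4.08 after infarction with DMSO and 58.9% ± 3.86 with A10i. Junb went the other way, from 5.50% ± 0.482 to 15.4% ± 2.00 and 13.5% ± 3.20. The Fos family together held 4.18% ± 0.251, 11.1% ± 1.23 and 8.50% ± 1.42 of the sum, so Jun family transcripts were the large majority in every mouse. Every infarcted mouse had a lower Jund share and a higher Junb share than every sham mouse. When counts were not divided by length, Jund shares of 49.5%, 37.6% and 39.8% were found in the sham, DMSO and A10i groups.

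**Figure D4:**
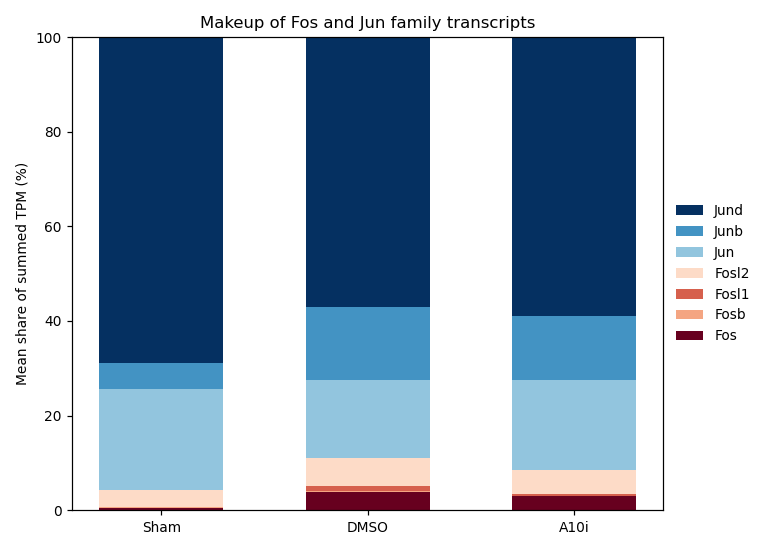
Mean share (y axis, percent of summed TPM) of the 4 Fos and 3 Jun family members in each group (x axis; n = 3 sham, 4 DMSO and 4 A10i mice). Jund fills 68.8% of the sham bar and 57.1% and 58.9% of the DMSO and A10i bars, and Junb is the segment that widens most.

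Other bZIP factors were less uniform. Of 21 listed, 20 passed the filter, and against sham 6 were higher, 2 lower and 12 not called in infarcted tissue, with a median log2 fold change of 0.11. Over all genes tested, 14.9% were called higher and 11.5% lower. Crem, a cAMP-responsive relative of CREB, rose by 0.66 (SE 0.09, adjusted p = 0.000191). Nfe2l2, which encodes the oxidative stress factor NRF2, a partner of small Maf proteins, rose by 0.46 (SE 0.07, adjusted p = 0.000280). Maf, a large Maf factor expressed in macrophages, rose by 0.72 (SE 0.14, adjusted p = 0.00207). Atf5, a factor of the mitochondrial stress response, fell by 0.63 (SE 0.08, adjusted p = 0.000132). In A10i against DMSO mice the list had a median of -0.06, with 13 of 20 negative.

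Transcripts of the kinases and SRF cofactors that act upstream did not share the rise of the members. Of 22 listed, all past the filter, 1 was higher, 6 were lower and 15 were not called against sham, with a median of -0.12. The shares over all genes tested were 14.9% higher and 11.5% lower. Mapk7, which encodes ERK5, was the higher one (0.61, SE 0.12, adjusted p = 0.00181). Map2k6, a kinase that activates p38, fell by 1.35 (SE 0.22, adjusted p = 0.000585), Mapk9, which encodes the Jun kinase JNK2, by 0.35 (SE 0.05, adjusted p = 0.000428), the ternary complex factor Elk1 by 0.37 (SE 0.08, adjusted p = 0.00310) and the SRF cofactor Mrtfb by 0.63 (SE 0.07, adjusted p = 4.42e-05). RNA levels do not show kinase activity. In A10i against DMSO mice the median of this list was 0.00, with 12 of 22 positive.

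Most genes listed as AP-1 targets were also higher in infarcted tissue. Of 24 listed, 22 passed the filter, and 17 were higher, 0 lower and 5 not called in infarcted against sham tissue, with a median log2 fold change of 2.63. Among all genes tested, 14.9% were called higher and 11.5% lower. Il6, Il11 and Tnf, among the 17, averaged 0.0134, 0.109 and 0.135 CPM in sham mice. They passed the filter through infarcted libraries, so their calls were nearly fixed in advance. The list was chosen with earlier results of these data known, and the part of AP-1 in these changes was not tested. Timp1, an inhibitor of matrix metalloproteases, rose by 6.35 (SE 0.52, adjusted p = 2.37e-05), from 1.15 ± 0.336 CPM in sham to 113.8 ± 54.5 in DMSO and 76.6 ± 30.9 in A10i mice. Plaur, the urokinase receptor, rose by 3.34 (SE 0.31, adjusted p = 3.40e-05). The chemokine gene Ccl2 rose by 4.63 (SE 0.49, adjusted p = 8.32e-05) and the hyaluronan receptor gene Cd44 by 2.32 (SE 0.23, adjusted p = 5.19e-05). In A10i against DMSO mice 20 of 22 had a negative value, with a median of -0.54 beside 0.00 over all genes tested. The 4 genes named here ranged from -1.03 (Ccl2) to -0.54 (Cd44).

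**Figure D5:**
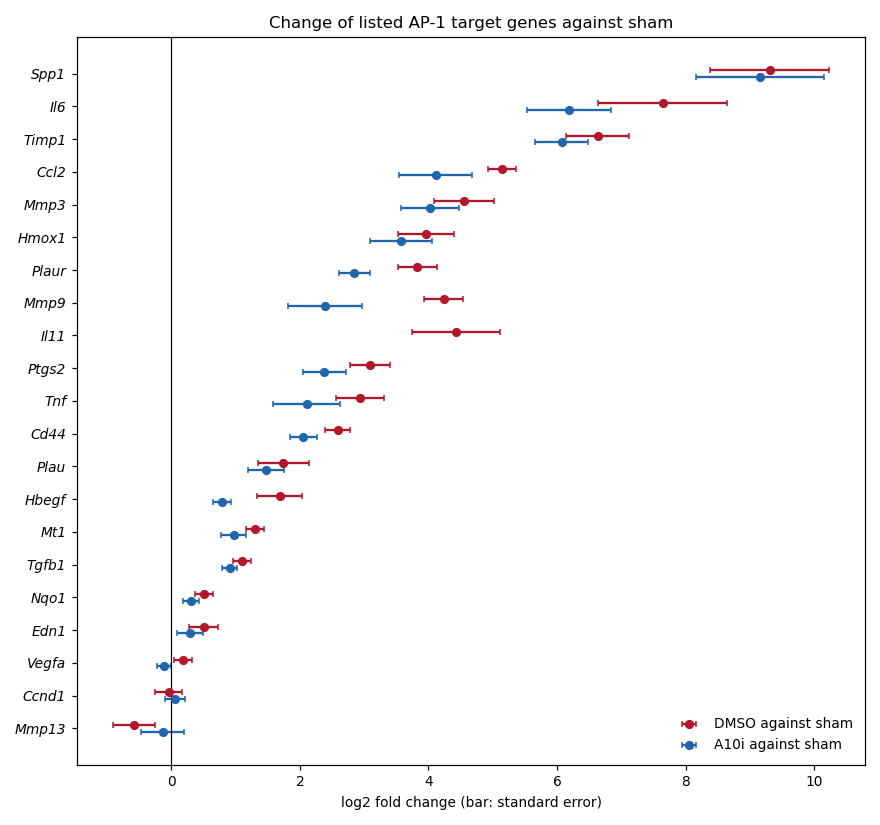
Log2 fold change against sham (x axis) of 21 of the 22 AP-1 target genes past the filter (y axis) in DMSO mice (red) and A10i mice (blue), with bars for the standard error. Most values lie right of 0, and Il11 has no A10i value because it did not pass the filter in that comparison.

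The genes whose log2 CPM was most like that of Atf3 over the 11 libraries, among 14756 with a mean of at least 1 CPM and members left out, were Nfe2l2 (Pearson r = 0.989), Ptpn23 (0.983), Ankrd1 (0.981), Adamts9 (0.980) and Zfp593 (0.978). Ankrd1, a cardiac stress gene of the sarcomere and nucleus, had 641.6 ± 37.5 CPM in sham mice, 3013 ± 1066 with DMSO and 1512 ± 246.9 with A10i. These correlations are descriptions over libraries that share the 3 group levels. Among the members, Fosl2 (0.97), Jund (0.96) and Maff (0.95) were nearest to Atf3 and Jun (0.65) farthest. With the treatment means subtracted over the 8 infarcted libraries, the nearest genes were Rrp12 (r = 0.996), Ddx54 (0.971), Gm2223 (0.968), Snrpd3 (0.968) and Hspb1 (0.963). Atf3 was far higher in A105 than in the other DMSO mice, and without A105 the same genes had r = 0.984, 0.873, 0.836, 0.836 and 0.879 over 7 libraries. On that measure Jund (0.724) was the nearest member and Fos had 0.0573, whereas without A105 Fosl2 (0.922) was the nearest, Fos had 0.899 and Jund 0.568, so these values rest on that mouse.

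Several cell type marker lists differed between infarcted and sham tissue, where 14.9% of all genes tested were called higher and 11.5% lower. Summed CPM of 11 neutrophil markers ranged from 1.19 to 2.26 for sham, from 74.2 to 146.3 for DMSO and from 14.4 to 50.7 for A10i mice, led by S100a9. Of these, 7 passed the filter, all higher in infarcted than in sham tissue. Apart from Csf3r (1.11 CPM), those 7 averaged at most 0.206 CPM in sham mice. They passed the filter through the infarcted libraries, so their count was nearly fixed in advance. The defining marker Ly6g was at 0 in every sham library and averaged 0.155 CPM in DMSO and 0.0898 CPM in A10i mice. Summed cardiomyocyte markers, led by Myh6, were 72197 to 72939 CPM in sham mice, 34306 to 50151 with DMSO and 40926 to 55916 with A10i, with 5 of 8 called lower and 0 higher. Fibroblast markers, led by Col3a1, summed to 1142 to 1242 CPM in sham mice, 1915 to 6360 with DMSO and 4817 to 8890 with A10i (5 of 8 higher), and macrophage and monocyte markers, led by Lyz2, to 318.9 to 351.4, 549.8 to 927.7 and 711.3 to 1360 CPM (8 of 10 higher). Plac8 of the macrophage and monocyte list averaged 0.155 CPM in sham mice and also passed the filter through the infarcted libraries. Among the lists so far, the A10i and DMSO ranges were apart only for the neutrophil list, with A10i lower. Endothelial markers, led by Cdh5, ranged from 784.6 to 1006 CPM over all libraries with 0 of 7 called. T and NK cell markers, led by Lck, and B cell markers, led by Cd79b, stayed at or below 2.73 CPM in sum, with 0 called. Atrial markers, led by Nppa, summed to 104.1 to 226.8 CPM in sham and 478.8 to 1663 in infarcted mice (1 of 4 higher, Nppa itself). In DMSO mice Nppa averaged 1039 CPM, beside 13.2 for Myl7, 3.98 for Sln and 26.9 for Myl4. The study names Nppa as a heart failure marker, so this sum, made up mostly of Nppa, is not a measure of atrial tissue. In infarcted tissue Sln, Myl4 and Myl7 were at 5.18, 3.87 and 2.82 times their sham level, short of the threshold (quasi-likelihood test, adjusted p = 0.0123, 0.0221 and 0.0374). In A10i mice alone, 2 of 4 were called higher than in sham. There Sln, Myl4 and Myl7 averaged 6.77, 36.7 and 22.8 CPM, above their DMSO means, and Nppa 716 CPM, below its DMSO mean. A difference in the atrial tissue sampled was not tested. Red blood cell transcripts, led by Hbb-bs, ranged from 234.0 to 5015 CPM and were highest in A117 and A105 (0 of 5 called). The part of these cell types in the members' values was not tested.

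Some members overlap other genes, and the strand setting of the counting is not given in the sources used here. Junb shares 351 bases with Prdx2 on the opposite strand (4003 to 6133 counts per library) and Fosl1 shares 2767 bases with Ccdc85b (720 to 1061 counts). Over the whole gene, both neighbours averaged lower in infarcted than in sham mice (189.8 against 231.8 CPM for Prdx2, 32.1 against 40.8 CPM for Ccdc85b). Reads in the shared bases were not examined, and their part in the Junb and Fosl1 values was not tested. Jun and Jund overlap the antisense genes Junos and Gm11175, which had at most 66 and 83 counts, and Atf3 overlaps Gm24748, which had 0. Fos, Fosb, Fosl2, Maff and Batf overlap no other gene in GENCODE M21.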

How the data were processed

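RNA from 11 mouse hearts (3 sham, 4 DMSO and 4 A10i mice, each a separate animal) was poly(A)-enriched and sequenced from strand-specific libraries by the authors. Per the labels and the study's methods, reads were processed with bcl2fastq 2.20.0, aligned to mm10 (GRCm38) with GSNAP, and uniquely aligned reads were counted per Ensembl gene with featureCounts 2.0.1. The deposited values are raw counts without normalization, beside the merged exon length of each gene. Of 55513 rows, 92 spike-in rows (14 to 55 counts per library) were left out. Symbols came from GENCODE M21 and named 55154 of 55421 genes. Totals of 21702623 to 29511768 counts limit precision for members with few counts.

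Counts were analysed in R 4.3.3 with edgeR 4.0.16 (filterByExpr, TMM, robust quasi-likelihood F-test, two-sided, Benjamini-Hochberg adjustment over all genes tested, threshold 0.01). Infarcted against sham was the mean of the A10i and DMSO coefficients in a fit of all 11 libraries, and each other comparison used its own groups. Standard errors are the log2 fold change over the root of F. TPM used the deposited lengths. DESeq2 1.42.0, limma-voom (limma 3.58.1), other scalings, no filter, a threshold of 0.05, a joint fit and the omission of each mouse were alternatives. Correlations with Atf3 without A105 were added after seeing the data. Figures used matplotlib 3.10.9. The fit was checked on simulated counts.

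Members and lists were chosen with earlier results of these data known. Named genes are all members, up to 5 genes of each related list with the smallest p for infarcted against sham, the 5 genes most correlated with Atf3 on each of the measures described, and leading markers. Of the genes so named, 2 are not reported here. Log2 CPM used a prior count of 0.5. Motifs were searched on both strands (TATAAA on one) in the 250 bases before each RefSeq start.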

Additional observations from a re-analysis of the deposited data

Results flagged for a closer look

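Atf3 in the DMSO mouse A105 stood at 82.1 CPM, and its gap to the next DMSO mouse was 0.882 of the range of the group, above Dixon's critical value for 4 samples. It was the 1 such value among 20 groups of 4 examined (10 members in DMSO and A10i mice), and chance marks about 1 in 20 groups. Without A105 the log2 fold change of Atf3 in A10i against DMSO mice was -1.76 in place of -2.09. The red blood cell transcripts of A105 summed to 3717 CPM, the highest of the DMSO mice, and their part in the Atf3 value was not tested.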

How the results depend on the processing

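The counts of members called were 8 to 10 for infarcted against sham, 8 to 10 for DMSO against sham and 8 to 9 for A10i against sham over all alternatives, and 5 to 7 members had no overlap between A10i and DMSO mice. The share of all genes called or without overlap also changes with the setting and is not given beside these counts. Their stability is therefore not read as a result about the members. With a threshold of 0.05, Jun was called in infarcted and in DMSO mice and Jund in A10i mice, giving 10, 10 and 9. Leaving out 1 mouse at a time gave 8 to 9, 8 to 10, 8 to 8 and 6 to 7 for these counts. Apart from rescaling, leaving out a mouse cannot create an overlap, so the last of these ranges is not a check. At the threshold of 0.01, of 420 alternative values of the members' log2 fold changes against sham, 412 kept direction and side of the threshold, 5 lost the call, 3 gained it and 0 reversed. The lost calls were Jund against sham without S2 or S3 and Batf in DMSO mice without each sham mouse, as given in the report. The gained calls were Jun in DMSO mice with DESeq2 (adjusted p = 0.00712) or without A128 (adjusted p = 0.00932), and Jund in A10i mice with library size as the scaling (0.47, adjusted p = 0.00221). That scaling moved the median of all genes against sham by 0.20 in all infarcted, 0.21 in DMSO and 0.18 in A10i mice, so 0.47 is 0.29 above the median of all genes. In A10i against DMSO mice, Batf ranged from -0.16 to 0.10 and was positive without A129 or without A120, and the other 9 members stayed negative under every alternative. Without division by length the sham, DMSO and A10i mice had Jund shares of 49.5%, 37.6% and 39.8%, by construction of the measure, with the same order of groups. No paired analysis was possible because the replicate labels are mouse identifiers that the groups do not share. Few counts limit Fosl1, Fosb and Batf, whose sham libraries held 0 to 14 counts.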
